A study of Bos taurus with 10 samples.

Results

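The 39 genes described here are genes known in mouse for genomic imprinting. They were chosen by name: a row of the deposited table belonged to the set when its symbol equalled 1 of 39 listed symbols. Each of the 39 had exactly 1 row, of 21130 rows in the table. The series compared muscle RNA of cattle of 24 months, 7 libraries labelled MSTN+/- (heterozygous at MSTN, which encodes myostatin, a protein that restrains muscle growth) and 3 labelled wild type. All 10 libraries were labelled as frozen muscle extracted with Trizol. The labels name no strain, no allele of the MSTN change, no treatment, and no number of animals behind the libraries, so p-values cover only the scatter among these libraries, part of which may be technical. Replicate numbers only name libraries.

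Imprinted genes are transcribed mainly or only from the copy inherited from 1 parent. They lie in clusters, each controlled by an imprinting control region, a stretch of DNA that carries methylation on 1 parental copy from the egg or the sperm and keeps it in body cells. Within a cluster, genes of the maternal copy often lie beside genes of the paternal copy, and long non-coding RNAs such as H19, Meg3, Kcnq1ot1 and Airn mark or silence 1 of the copies. Many of the proteins act on fetal and placental growth. The table gives 1 level per gene and cannot tell the parental copies apart, so nothing below measures imprinting itself.

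The species and tissue labels did not match the rows of these genes. The descriptions of 38 of the 39 rows named Mus musculus, the row of H19 having no description. None of their gene identifiers (0 of 39) and none of their transcript accessions (0 of 79) occurred in a RefSeq gene table of cattle, although 31 of the 39 symbols are also names of cattle genes. Groups are therefore called by their labels. Ckm and Ttn, genes of muscle creatine kinase and titin that define skeletal muscle, reached at most 1.07 and 0.40 FPKM (sequenced fragments per unit of transcript length and of library size). Myh4 was lower still, at 0.07 FPKM or less, and Tnnt3 reached at most 1.04 FPKM. Some other muscle markers were higher. Myh2 was at 5.73 to 15.3 FPKM in MSTN+/- and at 0.14, 0.02 and 0.0 FPKM in wild type. Acta1 reached 24.4 FPKM in wild-type replicate 1. In both wild-type replicates 2 and 3, 2 of the 10 (Myh2 and Myh1) were below all MSTN+/- libraries and 4 above. The 10 muscle markers summed to 12.3 to 30.9 FPKM per library. The 9 markers of pluripotent cells, which can form all tissues, summed to 905 to 1540 FPKM in MSTN+/- while wild-type replicates 1, 2 and 3 had sums of 2.26, 2620 and 2960 FPKM. The 8 fibroblast markers summed to 2730 to 5720 FPKM in MSTN+/- and to 5900, 364 and 251 FPKM in those wild-type libraries. Of the 9 pluripotency markers, 7 were above all MSTN+/- libraries in both wild-type replicates 2 and 3. The core factors Pou5f1 and Sox2 were not. Pou5f1 was at 346 and 533 FPKM there and at 0.38 FPKM in replicate 1, below the 633.0 to 848 FPKM of MSTN+/-. Sox2 was at 224 and 202 FPKM there and at 0.52 FPKM in replicate 1, beside 212 to 357 FPKM in MSTN+/-. All 8 fibroblast markers were below the MSTN+/- range in replicates 2 and 3. In replicate 1, 4 were above that range, 2 within it and 2 below it. The 2 below were Dcn (24.3 FPKM, beside 169 to 324 FPKM in MSTN+/-) and Lum (28.8 FPKM, beside 45.2 to 99.9 FPKM). The wild-type libraries thus differed from each other, replicates 2 and 3 lying closer to each other than to replicate 1, and the main comparisons are given with all 10 libraries, without wild-type replicate 1, and against that replicate alone. In bulk RNA, fewer cells of a type and less RNA per cell cannot be told apart, and what part such cell types have in the differences below was not tested.

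Expression of the set ranged from genes at the detection limit to some of the most abundant transcripts. Of the 39 genes, 24 were at 1 FPKM or more in all 10 libraries and 11 at 10 FPKM or more in all. The genes H19, Gnas, Cd81, Grb10, Meg3 and Rian were the 6 that passed 100 FPKM in at least 1 library. Magel2, Mkrn3, Kcnq1 and Rasgrf1 stayed below 1 FPKM in every library. None of the 8 loci with a name was silent as a whole: each held at least 1 gene above 1 FPKM. The 32 genes that reached 1 FPKM in at least 3 libraries were tested, and Usp29, Zim1, Magel2, Mkrn3, Kcnq1, Nespas and Rasgrf1 were not.

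**Figure D1:**
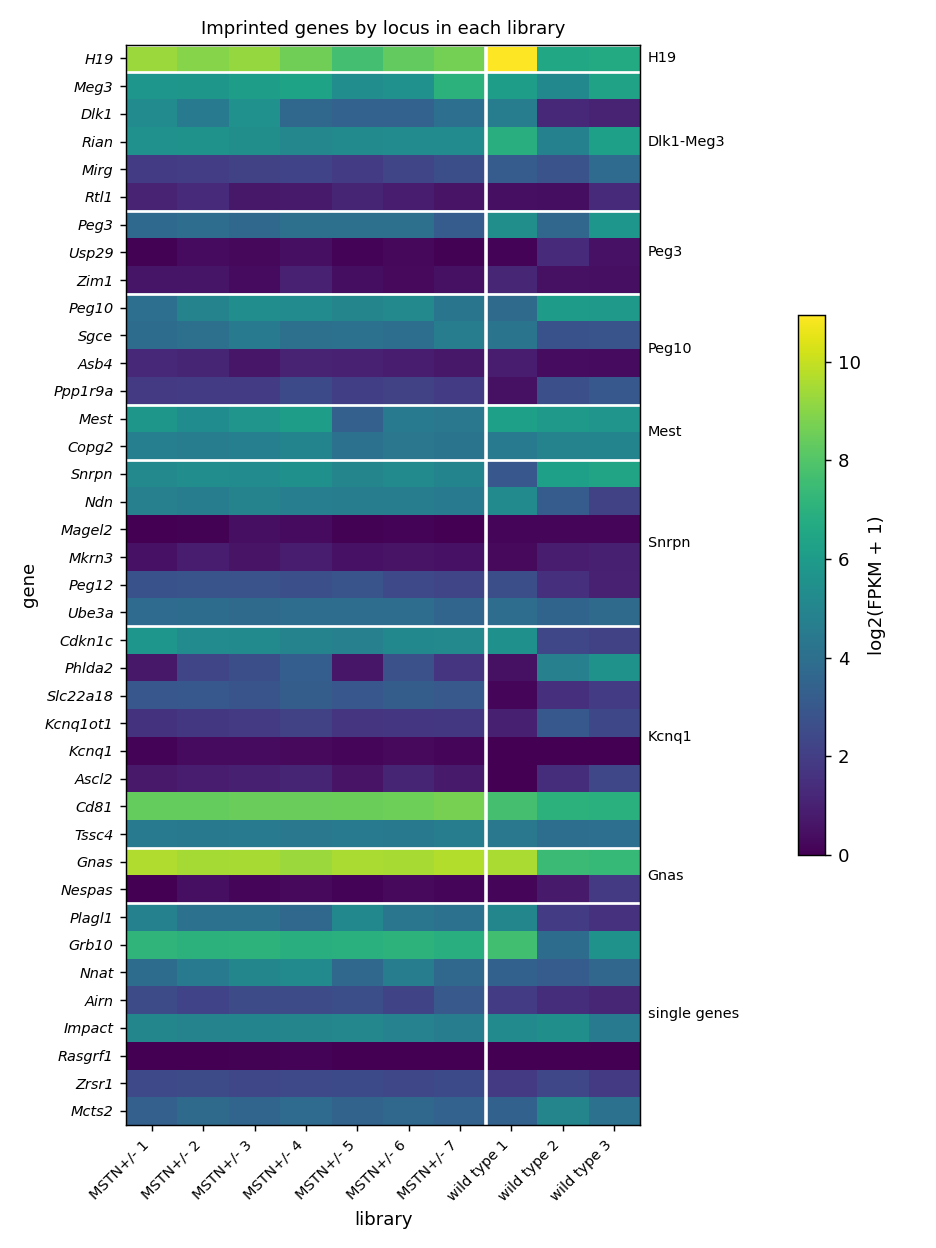
Heat map of the 39 imprinted genes (rows, grouped by locus) in the 10 libraries (columns); colour is log2(FPKM + 1). H19, Gnas and Cd81 are among the brightest rows, and wild-type replicates 2 and 3 stand apart from the 7 MSTN+/- libraries in rows such as Dlk1, Cdkn1c, Gnas and Phlda2, where wild-type replicate 1 looks different from them.

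H19, a maternally expressed non-coding RNA that shares an imprinting control region with the growth factor gene Igf2, had a higher level in 1 library than any other of the 39 genes. H19 (gene 14955) was at 1979 FPKM in wild-type replicate 1, where 8 genes were more abundant, while wild-type replicates 2 and 3 had 91.8 and 104 FPKM. In the MSTN+/- libraries it was at 201 FPKM in the lowest, 407 FPKM in the median and 626 FPKM in the highest library. All 7 values lay between those of the wild-type libraries, so the groups overlapped. With all 10 libraries H19 did not pass the threshold (log2 difference 0.61, SE 0.82, limma adjusted p = 0.564). It was higher in MSTN+/- without wild-type replicate 1 (2.05, SE 0.36, adjusted p = 4.68e-04) and lower against that replicate alone (-2.28, SE 0.50, adjusted p = 0.00587). Its neighbour Igf2, expressed from the paternal copy, had the same order, with 1290 FPKM in wild-type replicate 1, 61.8 to 134 FPKM in MSTN+/-, and the lowest values in wild-type replicates 2 and 3 (45.6 and 20.3 FPKM). The difference of Igf2 was -0.29 with all libraries, 1.49 without replicate 1 (adjusted p = 0.00324) and -3.87 against it alone (adjusted p = 1.06e-04).

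At the Dlk1-Meg3 locus only Mirg, of 5 members tested, was called with all 10 libraries. Over all genes 31.8% were called higher and 12.8% lower, and 5 genes are too few to set against those shares. Dlk1 (gene 13386), which encodes a membrane protein that restrains adipocyte differentiation, was at 9.98 to 44.9 FPKM in MSTN+/- (median 15.2) and at 23.2 FPKM in wild-type replicate 1. Wild-type replicates 2 and 3 had 1.43 and 1.07 FPKM, below all 7. Dlk1 differed by 1.97 on the log2 scale with all libraries (SE 0.76, limma adjusted p = 0.0572), and by 3.11 without wild-type replicate 1 (adjusted p = 4.21e-04). Against replicate 1 alone the difference of Dlk1 was -0.32 (adjusted p = 0.750). It passed the threshold with a pseudocount of 0.1 (adjusted p = 0.0473) and with library weights (3.06, adjusted p = 5.96e-04). The difference with library weights lay near the 3.11 without wild-type replicate 1, so these 2 fits are not separate support.

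Meg3 (gene 17263), the maternally expressed RNA that heads this cluster, was at 40.8 to 132 FPKM in MSTN+/- (median 54.1), and wild-type replicates 1, 2 and 3 had 67.3, 33.1 and 78.6 FPKM. The libraries of the 2 labels overlapped, and no fit called Meg3 different (adjusted p of 0.229 to 0.972 over 17 alternatives). Rian (gene 75745), a maternal RNA downstream that hosts small nucleolar RNAs, was at 32.1 to 47.6 FPKM in MSTN+/- and at 116, 27.1 and 71.1 FPKM in wild type. Rian was lower in MSTN+/- against wild-type replicate 1 alone (-1.53, SE 0.19, adjusted p = 2.54e-04), and without wild-type replicate 2 (-1.18, adjusted p = 0.00229), while its difference was -0.16 without replicate 1 and -0.61 with all libraries (adjusted p = 0.166). Mirg (gene 100040724), the maternal host RNA of a microRNA cluster, was at 2.73 to 5.18 FPKM in MSTN+/- and at 7.99, 5.94 and 13.01 FPKM in wild type, which were all higher. It was lower in MSTN+/- with all libraries (-1.10, SE 0.22, adjusted p = 0.00327), and this call held under all 17 alternatives, with differences of -1.41 to -0.82. Rtl1, a paternal gene derived from a retrotransposon and needed in placenta, was at 0.33 to 1.49 FPKM and did not pass the threshold. Dio3, a paternal deiodinase gene at the far end of this cluster, stayed at 0.26 to 1.28 FPKM and was not tested. Transcripts of both strands lie over Rtl1, and the sources used here do not say whether the counting used strand.

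The Peg3 locus rested on 1 gene. Peg3 (gene 18616), a paternal zinc-finger gene, was at 8.24 to 15.4 FPKM in MSTN+/- (median 14.3). Wild-type replicates 1 and 3 had 41.4 and 53.1 FPKM, above all 7, and replicate 2 had 11.2 FPKM, within their range. Peg3 was lower in MSTN+/- with all libraries (-1.12, SE 0.39, limma adjusted p = 0.0414), a call close to the threshold. It was lost when wild-type replicate 1 was left out (-0.88, adjusted p = 0.0931), without replicate 3 (-0.70, adjusted p = 0.213), with library weights (-0.25, adjusted p = 0.516), with no filter on low values (0.0607) and without any 1 of the 7 MSTN+/- libraries (adjusted p of 0.0534 to 0.0709). It was -1.60 against wild-type replicate 1 alone (adjusted p = 0.00173) and -1.78 without replicate 2 (adjusted p = 4.47e-04). Usp29, a paternal ubiquitin peptidase gene transcribed away from Peg3, was at 0.05 to 1.46 FPKM, highest in wild-type replicate 2, the library with the lowest Peg3 of the 3 wild types. Zim1, the maternal zinc-finger gene of this locus, was at 0.23 to 1.24 FPKM.

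At the Peg10 locus, without wild-type replicate 1, Sgce and Asb4 were called higher in MSTN+/- and Peg10 and Ppp1r9a lower. In that fit 42.1% of all genes were called higher and 31.8% lower, so calls in both directions were common over all genes. How often neighbours were called in opposite directions was not counted. Peg10 (gene 170676), a paternal gene of retrotransposon origin, was at 14.9 to 40.4 FPKM in MSTN+/- (median 30.5), with 12.9 FPKM in wild-type replicate 1 and 63.9 and 59.6 FPKM in replicates 2 and 3. Sgce, the paternal epsilon-sarcoglycan gene that shares its promoter region with Peg10, was at 13.8 to 23.1 FPKM in MSTN+/-, 17.7 FPKM in wild-type replicate 1, and only 5.71 and 6.08 FPKM in wild-type replicates 2 and 3. So in the libraries where Peg10 was highest, Sgce was lowest. Without wild-type replicate 1, Peg10 was lower in MSTN+/- (-1.12, SE 0.34, limma adjusted p = 0.0117) and Sgce higher (1.38, SE 0.18, adjusted p = 6.83e-05). With all libraries Peg10 did not pass (adjusted p = 0.518) and Sgce did (0.90, SE 0.30, adjusted p = 0.0346).

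The call of Sgce was lost under most alternatives. It had differences of 0.64 and 0.68 without wild-type replicates 2 and 3 (limma adjusted p of 0.171 and 0.161) and of -0.06 against replicate 1 alone. It also missed the threshold with median-of-ratios scaling (0.70, adjusted p = 0.0995), with TPM rescaling (0.0560), with quantile normalization (0.0926), with no filter (0.0507) and when MSTN+/- replicate 2, 3, 5 or 7 was left out (0.0513 to 0.0613). Ppp1r9a, which encodes a neuronal actin-binding protein, was at 2.65 to 4.49 FPKM in MSTN+/- and at 0.41, 5.29 and 7.07 FPKM in wild type. Its difference was -0.02 with all libraries (adjusted p = 0.974). It was lower in MSTN+/- without replicate 1 (-0.80, adjusted p = 0.00148) and higher against replicate 1 alone (1.54, adjusted p = 6.67e-04). Asb4, a subunit gene of a ubiquitin ligase, was at 0.24 to 1.34 FPKM, with both lowest values in wild-type replicates 2 and 3.

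Mest (gene 17294), a paternal gene of mesoderm that encodes a hydrolase-like protein, varied widely within 1 label. In MSTN+/- replicates 1 to 7 it was at 54.9, 39.6, 50.8, 66.7, 9.36, 21.6 and 20.1 FPKM, a range of 7.12-fold. The wild-type libraries were at 71.4, 57.5 and 50.8 FPKM. The label groups overlapped, and Mest passed the threshold in none of the fits (limma adjusted p of 0.107 to 0.309 over the 17 alternatives). Copg2, a coatomer gene beside Mest whose transcripts overlap transcripts of the Mest region, was lower in MSTN+/- replicates 5, 6 and 7 (16.4, 19.3 and 17.4 FPKM) than in replicates 1 to 4 (23.8 to 29.4 FPKM). Replicates 5, 6 and 7 were thus the 3 lowest of the 7 for both neighbours, which is a description of the libraries with no test.

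In the Snrpn locus, which in human corresponds to the Prader-Willi and Angelman region, the paternal genes Snrpn and Ndn were called in opposite directions once wild-type replicate 1 was left out. That fit called 42.1% of all genes higher and 31.8% lower. Snrpn (gene 20646), which encodes a splicing protein, was at 29.9 to 44.5 FPKM in MSTN+/- (median 36.4). It was at 6.79 FPKM in wild-type replicate 1, below all 7, and at 71.5 and 83.0 FPKM in replicates 2 and 3, above all 7. Its difference was 0.04 with all libraries (limma adjusted p = 0.966), -1.07 without wild-type replicate 1 (SE 0.14, adjusted p = 8.01e-05) and 2.25 against it alone (SE 0.19, adjusted p = 3.35e-05). Ndn, the gene of the growth suppressor necdin, had the mirrored order, at 22.1 to 28.4 FPKM in MSTN+/- and 35.4, 7.99 and 3.51 FPKM in wild type. Ndn was higher in MSTN+/- without wild-type replicate 1 (2.01, SE 0.20, adjusted p = 1.18e-05), lower against it alone (-0.50, adjusted p = 0.0125) and not called with all libraries (1.17, adjusted p = 0.0689).

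Peg12, an intronless paternal gene of the Frat family, was at 3.89 to 6.16 FPKM in MSTN+/-, 5.21 FPKM in wild-type replicate 1, and 1.82 and 0.98 FPKM in replicates 2 and 3. Its call with all libraries (0.95, SE 0.30, limma adjusted p = 0.0253) was lost when wild-type replicate 2 was left out (0.84, adjusted p = 0.101), without replicate 3 (0.59, 0.133), against replicate 1 alone (0.02, 0.949), with median-of-ratios scaling (0.0646) and with quantile normalization (0.50, 0.169). Ube3a, the ubiquitin ligase gene that is maternally expressed in neurons, was nearly level at 10.6 to 14.2 FPKM in all 10 libraries. Its difference was 0.09 with all libraries (SE 0.12, adjusted p = 0.538), and it was called only with library weights, over a range of -0.10 to 0.27. Magel2 and Mkrn3, paternal genes beside Ndn, stayed at 0.02 to 0.36 FPKM and 0.21 to 0.93 FPKM.

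At the Kcnq1 locus 4 of 7 tested members were called higher with all libraries, where 31.8% of all genes were, and it was also the locus with the most members tested. Its imprinting centre drives the paternal RNA Kcnq1ot1, which silences the neighbouring genes on that copy. Slc22a18 (gene 18400), a maternal transporter gene, had 7.30 ± 0.881 FPKM (SD, n = 7) in MSTN+/-, from 6.13 to 8.50 FPKM, and 0.12, 1.79 and 2.89 FPKM in wild-type replicates 1, 2 and 3. It was higher in all 7 MSTN+/- libraries than in any wild-type library (log2 difference 1.84, SE 0.31, limma adjusted p = 0.00105), and the call held under all 17 alternatives (1.31 to 2.88). Against wild-type replicate 1 alone the difference was 2.88, over 1.5 times that of all libraries. Cd81 (gene 12520), a tetraspanin gene at the edge of the locus, had 357 ± 30.1 FPKM (SD, n = 7) in MSTN+/- and 211, 132 and 121 FPKM in wild type. Cd81 was likewise higher in 7 of 7 libraries (1.24, SE 0.16, adjusted p = 2.29e-04) and under all alternatives (0.75 to 1.49), with 0.75 against wild-type replicate 1 alone.

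Cdkn1c (gene 12577), the maternal cell-cycle inhibitor p57, was at 26.4 to 52.3 FPKM in MSTN+/- (median 34.9) and at 43.8 FPKM in wild-type replicate 1. In wild-type replicates 2 and 3 it was at 4.09 and 3.34 FPKM. Its difference of 1.85 with all libraries (SE 0.60, limma adjusted p = 0.0302) became 2.93 without wild-type replicate 1 (SE 0.21, adjusted p = 1.07e-06). The call was lost when wild-type replicate 2 was left out (1.37, adjusted p = 0.150), without replicate 3 (1.25, 0.159), against replicate 1 alone (-0.32, 0.387), with median-of-ratios scaling (0.0532) and when MSTN+/- replicate 1, 2 or 7 was left out (0.0502 to 0.0541). Phlda2, a maternal gene that limits placental growth, had the opposite order. Phlda2 was at 0.57 to 8.78 FPKM in MSTN+/- (median 3.84), 0.39 FPKM in wild-type replicate 1, and 26.5 and 49.0 FPKM in replicates 2 and 3. It was lower in MSTN+/- without wild-type replicate 1 (-3.22, SE 0.66, adjusted p = 0.00134) and not called with all libraries (-1.64, adjusted p = 0.204).

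Kcnq1ot1 itself was at 2.07 to 3.42 FPKM in MSTN+/- and at 0.95, 7.03 and 4.16 FPKM in wild type. It did not pass the threshold with all libraries (-0.31, adjusted p = 0.471). It was lower in MSTN+/- without wild-type replicate 1 (-0.89, limma adjusted p = 0.00126) and higher against it alone (0.83, adjusted p = 0.0103). Ascl2, a transcription factor gene of trophoblast, was at 0.51 to 1.22 FPKM in MSTN+/-, listed at 0 for wild-type replicate 1, and highest in replicates 2 and 3 (1.69 and 4.04 FPKM). The 5 trophoblast markers summed to 3.09 to 16.9 FPKM in MSTN+/- and to 5.74, 58.3 and 49.2 FPKM in wild type, with Elf5 and Cdx2 below 1 FPKM in all. Most of the sum was 1 gene, Tfap2c, in wild-type replicates 2 and 3 (50.6 and 43.7 FPKM). In replicate 1 it was Gata3 (5.42 FPKM). The part of these markers in the level of Ascl2 was not tested. Kcnq1, the potassium channel gene over which Kcnq1ot1 runs in the antisense direction, was at 0.26 FPKM or less throughout. Tssc4, which lies beside Cd81, was at 19.9 to 23.3 FPKM in MSTN+/- and at 19.9, 14.6 and 14.9 FPKM in wild type. Its small difference (0.37, SE 0.11, adjusted p = 0.0221) missed the threshold without wild-type replicate 2 (0.104) or 3 (0.0964), against replicate 1 alone (0.10, adjusted p = 0.476) and with median-of-ratios scaling (0.17, 0.305), TPM rescaling (0.0749) and quantile normalization (0.124).

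Gnas (gene 14683), which encodes the stimulatory G-protein alpha subunit and imprinted variants of it, was among the most abundant of the 39. Its row pools 9 transcripts, so variants from different promoters cannot be told apart. It was at 632 to 824 FPKM in MSTN+/- (median 737), at 743 FPKM in wild-type replicate 1, within that range, and well below it in wild-type replicates 2 and 3 (178 and 161 FPKM). Gnas was higher in MSTN+/- with all libraries (1.41, SE 0.39, limma adjusted p = 0.0148) and with wild-type replicate 1 left out (2.12, SE 0.10, adjusted p = 7.97e-08). Its difference was -0.01 against replicate 1 alone (SE 0.13, adjusted p = 0.958), and the call was lost without replicate 2 (1.09, adjusted p = 0.0833) and without replicate 3 (1.02, 0.0841). Nespas, the paternal antisense RNA at the head of the locus, was listed at 0 to 0.35 FPKM in MSTN+/- and at 0.12, 0.71 and 2.66 FPKM in wild type.

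**Figure D2:**
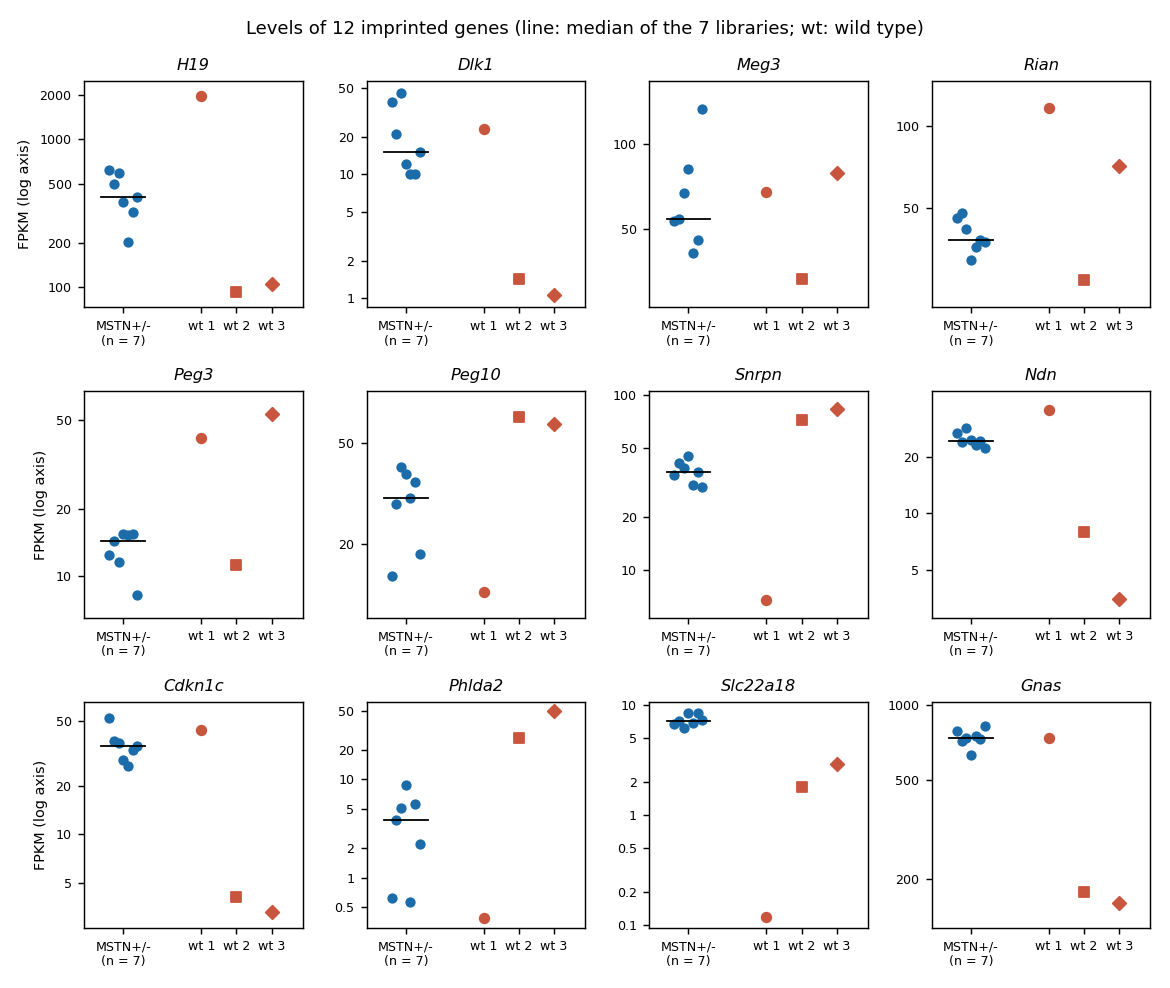
FPKM (log axis) of 12 imprinted genes; circles at left are the 7 MSTN+/- libraries with a line at their median, and the single points are wild-type replicates 1, 2 and 3. Replicate 1 lies within or above the 7 for Cdkn1c, Gnas and H19 while replicates 2 and 3 lie below them, and the order is turned round for Snrpn and Phlda2.

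The other 8 genes lie outside these clusters. Grb10 (gene 14783), an adaptor that dampens insulin and IGF receptor signalling, was steady at 117 to 144 FPKM in MSTN+/-. Wild-type replicates 1, 2 and 3 had 201, 13.8 and 46.7 FPKM. Grb10 was higher in MSTN+/- without wild-type replicate 1 (2.28, SE 0.32, limma adjusted p = 9.80e-05), lower against it alone (-0.65, SE 0.12, adjusted p = 0.00272) and not called with all libraries (1.30, adjusted p = 0.0919). Plagl1, a paternal zinc-finger growth regulator, was at 11.8 to 34.0 FPKM in MSTN+/- and at 31.8, 2.88 and 1.98 FPKM in wild type, a difference of 2.55 without wild-type replicate 1 (adjusted p = 5.61e-05) and of 1.46 with all (adjusted p = 0.0873).

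Airn (gene 104103), the paternal RNA antisense to the receptor gene Igf2r, was at 3.65 to 7.40 FPKM in MSTN+/- and at 2.86, 1.73 and 1.29 FPKM in wild type, so all 7 lay above all 3. It was higher in MSTN+/- (1.02, SE 0.21, limma adjusted p = 0.00336). The call was lost with quantile normalization (0.54, adjusted p = 0.0721) and when wild-type replicate 1 was the only control (0.60, 0.0988). Igf2r, the maternal clearance receptor of IGF2, was at 39.04 to 52.6 FPKM in MSTN+/- and at 103, 32.7 and 32.04 FPKM in wild type. The difference of Igf2r was -0.10 with all libraries (adjusted p = 0.811), 0.45 without wild-type replicate 1 (adjusted p = 0.00625) and -1.19 against it alone (adjusted p = 5.00e-04). Without strand in the counting, reads of an antisense pair cannot be separated.

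Nnat, the paternal neuronatin gene, was at 11.9 to 37.1 FPKM in MSTN+/- and at 9.56, 8.09 and 11.2 FPKM in wild type, which were all lower. Its call (0.98, SE 0.35, limma adjusted p = 0.0443) lay close to the threshold. It was lost without any 1 of the wild-type libraries (adjusted p of 0.0517, 0.149 and 0.0825 without replicates 1, 2 and 3), against replicate 1 alone (0.193), without any 1 of MSTN+/- replicates 2, 3, 4 and 6 (0.0566 to 0.0752), with no filter (0.0642) and under median-of-ratios scaling, TPM rescaling and quantile normalization (0.0808, 0.0527 and 0.0865).

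The genes Zrsr1 and Mcts2 are intronless copies of X-linked genes, so their reads may be shared with the parent genes. Zrsr1, a splicing factor gene, was at 3.99 to 4.61 FPKM in MSTN+/- and at 2.64, 4.07 and 2.61 FPKM in wild type (0.40, SE 0.13, limma adjusted p = 0.0283). That call was lost without wild-type replicate 3 (0.124), without MSTN+/- replicate 2 (0.0543), with library weights (0.19, adjusted p = 0.154), with median-of-ratios scaling (0.24, 0.138) and with quantile normalization, where the difference was -0.07 (0.654). Mcts2 was at 9.40 to 13.3 FPKM in MSTN+/- and at 9.48, 31.0 and 16.7 FPKM in wild type. Its difference was -0.58 with all libraries (adjusted p = 0.109), -0.97 without wild-type replicate 1 (adjusted p = 0.00131) and 0.21 against that replicate alone (adjusted p = 0.358). Impact, a paternal regulator of translation under stress, was at 21.3 to 42.4 FPKM in all libraries and did not pass the threshold (-0.12, adjusted p = 0.611). Rasgrf1, a paternal exchange factor gene best known in brain, was at 0.09 FPKM or less.

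Across the set, 10 of 32 tested genes were called higher in MSTN+/- and 2 lower with all 10 libraries. The median difference of the 32 was 0.28, beside 0.17 over all 14047 genes tested. Over all genes, 31.8% were called higher and 12.8% lower, so the members' shares of 31.2% and 6.25% were near or under the background. Of the 10 higher calls, 3 held under median-of-ratios scaling, TPM rescaling and quantile normalization together, namely Slc22a18, Cd81 and Gnas, and so did both lower calls, Mirg and Peg3. The scalings put the median of all genes at 0.00, 0.14 and -0.10, beside 0.17 as deposited. Of the genes called, 71.3% were higher as deposited, and 51.0%, 63.8% and 42.7% under these scalings. The 7 MSTN+/- libraries all exceeded the 3 wild-type libraries for 5 of the 32 genes (Nnat, Slc22a18, Cd81, Tssc4 and Airn) and all fell short of them for 1 (Mirg). Over all genes tested these shares were 25.2% and 6.86%.

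The counts changed with the wild-type library that was used. Without wild-type replicate 1, 15 of 32 were higher and 8 lower, where 42.1% and 31.8% of all genes were. Against replicate 1 alone, 7 were higher and 6 lower, where 32.9% and 10.6% of all genes were. Without replicate 2, 4 were called higher and 3 lower, where 24.8% and 5.65% of all genes were. Without replicate 3 the counts were 3 and 1, where 24.4% and 5.66% of all genes were called. These fits share the 7 MSTN+/- libraries, and the fit against 1 library assumes that it varies like the 7. Wild-type replicates 2 and 3 were both below all 7 MSTN+/- libraries for 15 of the 32 genes, against 42.0% of all genes tested, and both above them for 8, against 31.7%. Wild-type replicate 1 was above all 7 for 8 genes and below all 7 for 13, against 19.8% and 50.0% of all genes.

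The positions can be combined gene by gene. In 3 genes, H19, Grb10 and Ndn, replicates 2 and 3 lay below the 7 and replicate 1 above them, as in 8.27% of all genes tested. In 6 genes, Peg10, Ppp1r9a, Snrpn, Phlda2, Kcnq1ot1 and Ascl2, replicates 2 and 3 lay above and replicate 1 below, as in 12.7% of all genes. In 7 genes, Dlk1, Sgce, Asb4, Plagl1, Peg12, Cdkn1c and Gnas, replicates 2 and 3 lay below and replicate 1 within the range of the 7, as in 8.50% of all genes. The summed markers of pluripotent cells and of fibroblasts given above also placed the 3 wild-type libraries on different sides of MSTN+/-. Pou5f1 put all 3 below, and Sox2 put replicates 1 and 3 below and replicate 2 within the range. The fibroblast sum of replicate 1 (5900 FPKM) was only just above the MSTN+/- maximum of 5720 FPKM. By gene, 4 of the 8 fibroblast markers were above the range in replicate 1, 2 within it and 2 below it. The part of these markers in these patterns was not tested.

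**Figure D3:**
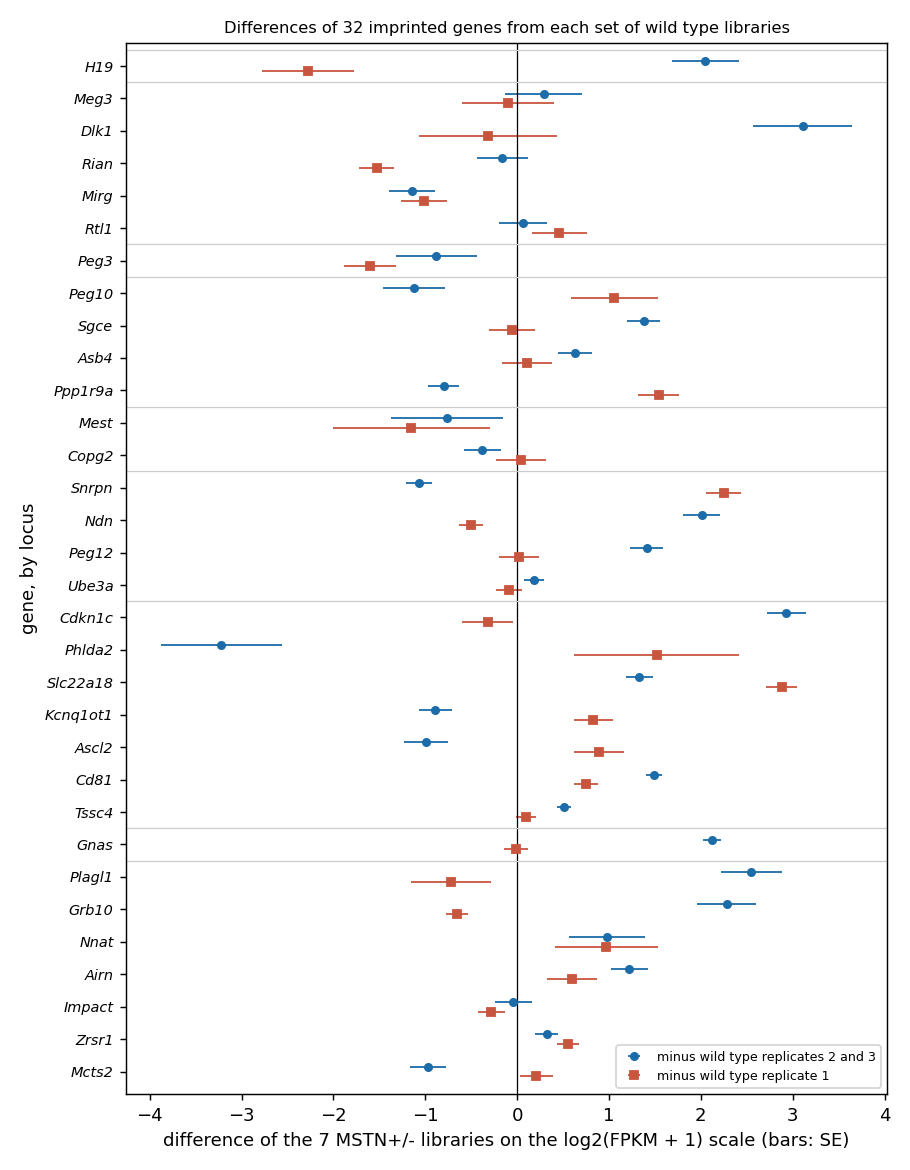
Difference of the 7 MSTN+/- libraries on the log2(FPKM + 1) scale for the 32 tested genes by locus, from wild-type replicates 2 and 3 (circles) and from wild-type replicate 1 (squares), with standard errors. H19 lies at 2.05 and -2.28 and Snrpn at -1.07 and 2.25, while Slc22a18 and Cd81 lie right of 0 and Mirg left of 0 in both.

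Calls fell among genes of either parental copy. Of 9 genes known for maternal expression 8 were tested, and 2 were higher (Cdkn1c and Slc22a18) and 1 lower (Mirg). Of 21 genes known for paternal expression 16 were tested, and 5 were higher (Sgce, Nnat, Peg12, Airn and Zrsr1) and 1 lower (Peg3). Of 9 genes with tissue-limited imprinting or expression from both copies 8 were tested, and 3 were higher (Cd81, Tssc4 and Gnas). Over all genes 31.8% were called higher and 12.8% lower, and with so few genes in a class these counts lie near those shares. The median differences of the classes were 0.38, 0.30 and 0.23, and no test compared them.

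The wild-type libraries that resembled each other, replicates 2 and 3, still differed in several imprinted genes. On the FPKM + 1 scale 5 of the 32 genes (15.6%) differed by 2-fold or more between them, where 3.77% of all genes tested did, and all 5 were higher in replicate 3. With 1 library each this has no replicate check. In FPKM, Peg3 was 4.75 times as high in replicate 3 as in replicate 2, Grb10 3.37 times, Rian 2.62 times, Meg3 2.37 times and Mirg 2.19 times. Meg3, Rian and Mirg are neighbours transcribed from 1 maternal strand, so they are not independent observations. Just short of 2-fold on the FPKM + 1 scale were Ndn and Impact, at 2.28 and 1.99 times as high in replicate 2 as in replicate 3 in FPKM. On the other side were the low genes Ascl2 and Rtl1, at 2.39 and 4.52 times as high in replicate 3. Next came Phlda2, 1.85 times as high in replicate 3, and Mcts2, 1.86 times as high in replicate 2. Dlk1, the paternal gene beside Meg3, was at 1.43 and 1.07 FPKM in these libraries, and H19 at 91.8 and 104 FPKM.

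**Figure D4:**
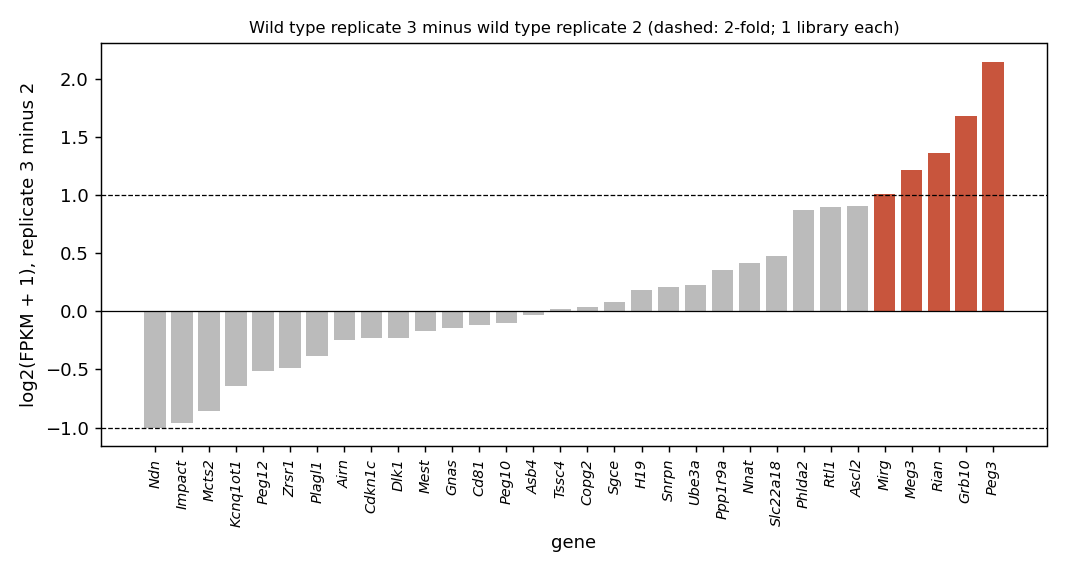
Difference between wild-type replicates 3 and 2 in log2(FPKM + 1) for the 32 tested genes, 1 library each; dashed lines mark 2-fold and coloured bars pass it. Peg3, Grb10, Rian, Meg3 and Mirg pass it on the side of replicate 3, and Ndn ends just short of it on the side of replicate 2.

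The 7 MSTN+/- libraries also differed among themselves in some of these genes. The SD of log2(FPKM + 1) over the 7 was at or above the 90th percentile of all genes tested for 8 of the 32 (25.0%, where 10% is the share by construction): H19, Meg3, Dlk1, Peg10, Mest, Plagl1, Nnat and Phlda2. Phlda2 and Mest had the largest SDs among them, 1.02 and 0.97, and Phlda2 was lowest in MSTN+/- replicates 5, 1 and 7 at 0.57, 0.62 and 2.22 FPKM. At the other end, Zrsr1, Tssc4, Grb10 and Cd81 were among the steadiest, with SDs of 0.07, 0.08, 0.11 and 0.12. The median SD was 0.22 for the 32 and 0.17 for all genes. SDs on this scale depend on the level of a gene, and no test was made.

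Of 37 other imprinted genes, 35 had a row and 26 were tested. With all libraries 10 were higher and 3 lower, with a median difference of 0.39. Over all genes 31.8% and 12.8% were. Without wild-type replicate 1 the counts were 17 and 5 (42.1% and 31.8% of all genes), and against it alone 6 and 6 (32.9% and 10.6%). The 3 with the smallest p in each direction were Tspan32, Atp10a and Trappc9, higher, and Slc38a4, Zdbf2 and Sfmbt2, lower. Slc38a4, a paternal amino acid transporter gene of placenta and liver, was at 11.4 to 19.3 FPKM in MSTN+/- and at 43.5, 49.5 and 51.0 FPKM in wild type, a difference of -1.71 (SE 0.15, limma adjusted p = 1.45e-05). Tspan32, a tetraspanin gene of the Kcnq1 locus, was at 3.19 to 5.61 FPKM and at 0.06, 0.19 and 0.62 FPKM (2.06, SE 0.19, adjusted p = 2.71e-05). Atp10a, a lipid flippase gene, had a difference of 1.25 and Trappc9, a trafficking gene, one of 0.67 (adjusted p of 3.36e-04 and 9.87e-04), and both kept that side in all fits. Zdbf2 was at 0.53 to 2.81 FPKM and at 2.50, 9.0 and 11.5 FPKM (-1.80, adjusted p = 0.00518; -0.68 and 0.241 against replicate 1 alone). Sfmbt2, a Polycomb-related gene, was at 0.38 to 2.58 FPKM and at 1.42, 10.8 and 8.39 FPKM (-1.61, adjusted p = 0.0181). The call of Sfmbt2 was lost without wild-type replicate 2 (0.102), without replicate 3 (0.0908) and against replicate 1 alone (-0.19, 0.753).

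The proteins that read, keep or erase the methylation of imprinting control regions form a separate list of 24 genes, of which 22 had a row and 21 were tested. With all libraries 1 was higher (Tet3) and 5 were lower, with a median difference of -0.63, where 31.8% of all genes were higher and 12.8% lower. Without wild-type replicate 1, 17 were lower and 1 higher (median -1.36), where 31.8% of all genes were lower and 42.1% higher. Against it alone 4 were higher (median 0.36), where 32.9% of all genes were. Zfp57, the zinc-finger protein that binds methylated control regions, was at 15.6 to 48.7 FPKM in MSTN+/-, 14.1 FPKM in wild-type replicate 1, and 180 and 122 FPKM in replicates 2 and 3. Its cofactor Trim28 was at 96.9 to 185 FPKM and at 116, 617 and 520 FPKM. Dppa3, which protects imprints in the early embryo, was at 0.13 to 12.6 FPKM in MSTN+/-, listed at 0 for wild-type replicate 1, and highest in replicates 2 and 3 (75.2 and 38.6 FPKM). All 3 genes were thus highest in wild-type replicates 2 and 3, as was the sum of the 9 pluripotency markers, though not Pou5f1 or Sox2. Both replicates lay above all 7 MSTN+/- libraries for 31.7% of all genes tested.

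The maintenance methyltransferase Dnmt1 was at 18.1 to 40.3 FPKM in MSTN+/- and at 40.8, 81.5 and 91.8 FPKM in wild type, and its recruiter Uhrf1 at 15.2 to 44.2 FPKM and at 33.0, 148 and 165 FPKM. Both were lower in MSTN+/- with all libraries (-1.0 and -1.57, limma adjusted p of 0.0170 and 0.0227), as were Smchd1 (-0.57, 0.00765), the helicase gene Hells (-1.90, 0.0222) and Trim28 (-1.29, 0.0388). Of these, Dnmt1, Uhrf1, Hells and Trim28 missed the threshold without wild-type replicate 2 (adjusted p of 0.0804, 0.114, 0.117 and 0.198) and without replicate 3 (0.0914, 0.120, 0.116 and 0.176). All 5 missed it against replicate 1 alone (0.512 for Dnmt1, 0.885 for Uhrf1, 0.965 for Hells, 0.575 for Trim28 and 0.154 for Smchd1). Without wild-type replicate 1 the difference of Trim28 was -2.05. It also missed the threshold with no filter (0.0581) and when any of MSTN+/- replicates 1, 2, 3, 5, 6 and 7 was left out (0.0503 to 0.0686).

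The de novo methyltransferase genes Dnmt3a and Dnmt3b were at 11.1 to 14.9 and 2.24 to 20.7 FPKM in MSTN+/-. In wild-type replicates 1, 2 and 3, Dnmt3a was at 7.68, 23.9 and 30.0 FPKM and Dnmt3b at 0.79, 156 and 224 FPKM. Their cofactor Dnmt3l was at 1.09 to 44.7 FPKM in MSTN+/- and at 0.22, 238 and 289 FPKM in wild type. Tet1 and Tet2, which oxidise methylated cytosine, were at 1.25 to 10.1 and 4.82 to 8.46 FPKM in MSTN+/-. In wild-type replicates 1, 2 and 3, Tet1 was at 0.62, 49.7 and 62.6 FPKM and Tet2 at 2.07, 20.5 and 20.8 FPKM. Ctcf, the insulator protein that binds the unmethylated H19 control region, was at 17.5 to 29.6 FPKM and at 22.7, 48.6 and 49.2 FPKM (-0.63 with all libraries, limma adjusted p = 0.0510). Tet3 ran the other way, at 5.4 to 6.53 FPKM in MSTN+/- and 5.67, 1.53 and 1.49 FPKM in wild type (1.0, adjusted p = 0.0130). The call of Tet3 was lost without wild-type replicate 2 (0.0733) or 3 (0.0724), against replicate 1 alone (0.06, 0.738) and with quantile normalization (0.56, 0.0931).

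**Figure D5:**
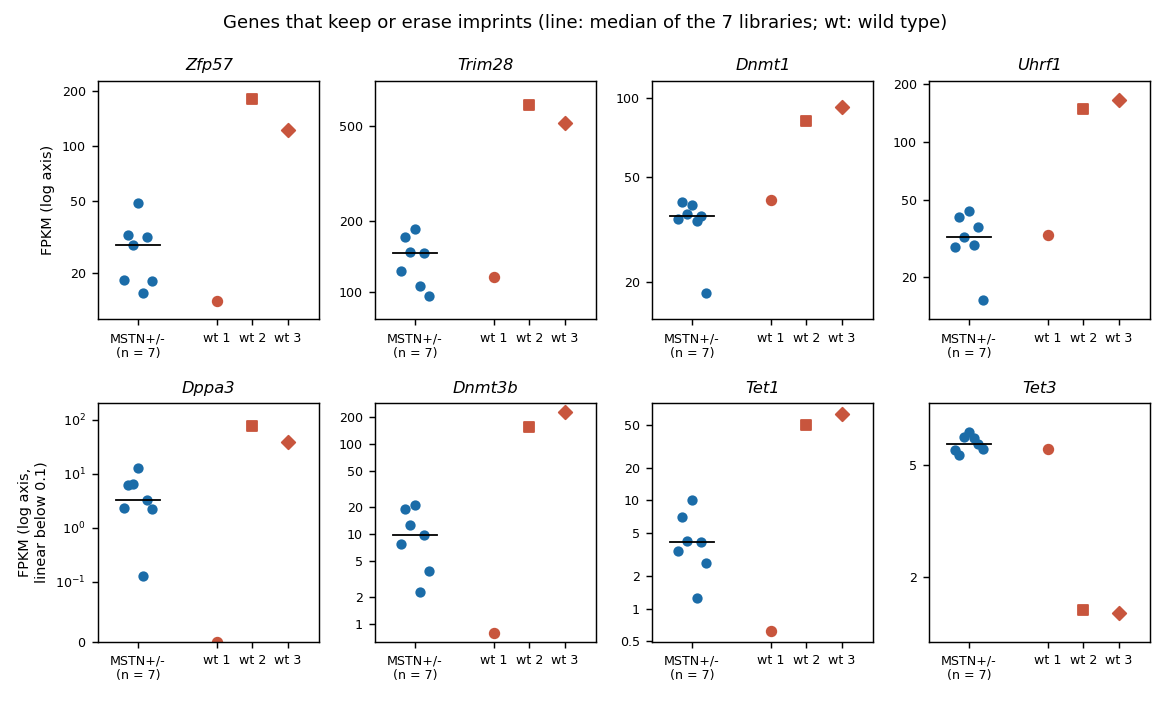
FPKM (log axis; for Dppa3 linear below 0.1) of 8 genes that keep or erase imprints, in the 7 MSTN+/- libraries (circles, line at the median) and in wild-type replicates 1, 2 and 3. For 7 genes replicates 2 and 3 lie above all 7 MSTN+/- libraries, and for Tet3 below them. Over all genes tested 31.7% and 42.0% had these positions.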

How the data were processed

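The authors deposited 1 table of FPKM values, named so per the file headers, with 2 decimals, for 10 libraries (7 labelled MSTN+/-, 3 labelled wild type). Aligner, counter, build, strand setting and filtering were not given in the sources used here. Columns were tied to libraries by title, with 0 other columns of values. No count model was used, since FPKM are not counts. FPKM totals were 402716 to 464418, and 11856 to 13858 genes reached 1 FPKM. Total depth is unknown. Steps of single fragments in low genes put relative depth at 1 to 1.20 times that of MSTN+/- replicate 1.

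Differences (MSTN+/- minus wild type) were estimated on log2(FPKM + 1) by limma 3.58.1 under R 4.3.3, with an intensity-dependent prior, no covariate and 8 residual degrees of freedom. The fit covered the 14047 genes that reached 1 FPKM in at least 3 libraries, with Benjamini-Hochberg adjustment over all of them and a threshold of 0.05. This scale understates changes of low genes. The procedure was tested on simulated data. Alternatives kept these genes except the one with no filter. Library weights came from limma's gene-by-gene method.

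The members, lists and tests were chosen with earlier results of these data known. All 39 members are named. From the other lists, genes fixed by name and the 3 with the smallest p in each direction are named. Marker sums for endothelium (4 genes) were 19.0 to 28.6 FPKM in MSTN+/- and 2.97, 28.8 and 25.7 FPKM in wild type. Different genes made up these sums. Tek was at 15.8 to 23.6 FPKM in MSTN+/- and at 0.66, 2.24 and 1.37 FPKM in wild type. Pecam1 was at 0.09 to 5.75 FPKM in MSTN+/- and at 0.06, 26.4 and 24.3 FPKM in wild type. For macrophages (5 genes) the sums were 4.05 to 14.3 FPKM in MSTN+/- and 16.5, 11.8 and 12.0 FPKM in wild type. Cd68 made up most of the MSTN+/- sums, at 3.72 to 13.1 FPKM, and was at 4.64, 8.98 and 8.25 FPKM in wild type. Lyz2 was at 0.29 FPKM or less in MSTN+/- and at 9.81, 2.69 and 3.54 FPKM in wild type. Ptprc and Adgre1 stayed below 1 FPKM in all libraries. No sequences are shown. Figures used matplotlib 3.10.9.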

Additional observations from a re-analysis of the deposited data

Results flagged for a closer look

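In a group of 7 libraries, the gap between the most extreme library and its nearest neighbour was compared with the whole range of the group, for 62 named genes. Chance gives so wide a gap in about 1 of 20 groups, and 7 genes had one. The 62 genes share the same 7 libraries and are not independent, so this number cannot be read as an excess over that rate. In MSTN+/- replicate 7, Cd81 was high at 418.82 FPKM, Airn high at 7.40 FPKM, Ube3a low at 10.97 FPKM, Dnmt1 low at 18.13 FPKM and Smchd1 low at 10.4 FPKM. In MSTN+/- replicate 4, Ppp1r9a was high at 4.49 FPKM and Slc38a4 high at 19.31 FPKM. Without MSTN+/- replicate 7 Cd81 (1.20), Airn (0.93), Dnmt1 (-0.87) and Smchd1 (-0.51) stayed past the threshold.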

How the results depend on the processing

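Alternatives were another pseudocount, no filter, 3 scalings, library weights, each library left out, and wild-type replicate 1 as the only control, 17 in all. Of the 10 members called higher, Slc22a18 and Cd81 kept their call under all 17, and of the 2 called lower, Mirg did. The number of members called higher was 10, with 4 under median-of-ratios scaling, 4 under quantile normalization and 16 with library weights. The number called lower was 2, with 1 when no filter was used, 4 under quantile normalization, 8 with library weights and 6 when wild-type replicate 1 was the only control. Over all genes 4468 were called higher and 1800 lower. Quantile normalization called 2874 higher and 3851 lower, median-of-ratios scaling called 3184 lower, and library weights called 4521 lower. Of all calls, 71.3% were higher as deposited, 63.8% under TPM rescaling, 51.0% under median-of-ratios scaling and 42.7% under quantile normalization. With 1 library left out at a time, members called higher numbered 3 to 15 and lower 1 to 8, and all genes called higher numbered 3429 to 5914 and lower 793 to 4461. In every case the extremes came from leaving out a wild-type library, except that 1 member called lower also resulted without each MSTN+/- library.

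Against wild-type replicate 1 alone, 26 of 54 named genes had the other sign, though several lay within their standard error of 0. The log2 difference was then -2.28 for H19, -0.06 for Sgce, 1.54 for Ppp1r9a, -0.65 for Grb10, -0.50 for Ndn, -0.32 for Cdkn1c, 0.83 for Kcnq1ot1, 0.89 for Ascl2, -0.01 for Gnas, 0.23 for Trim28, 0.62 for Dnmt3a and 1.28 for Tet2. It was also 3.22 for Dnmt3l, 2.45 for Dnmt3b, 2.18 for Dppa3, 1.64 for Tet1, 0.83 for Zfp57, 0.08 for Ctcf, 1.52 for Phlda2, 1.06 for Peg10, 0.21 for Mcts2, 0.04 for Copg2, -0.72 for Plagl1, -0.32 for Dlk1, -0.10 for Meg3 and -0.09 for Ube3a, which were past the threshold neither with all libraries nor here. Snrpn had -0.93 with library weights and -1.07 to 0.64 with a library left out. Igf2 had 1.18 with library weights and -1.47 to 1.49 with a library left out, and Igf2r 0.42 and -0.38 to 0.45. Zrsr1 had -0.07 under quantile normalization. The cause of these changes of sign was not tested. No paired analysis was possible because the replicate numbers come from the order of the sample records and tie no library to another. Low genes such as Asb4 and Rtl1 lie near the added 1 FPKM, where differences are understated.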
